A study of Homo sapiens with 97 samples.

Results

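The 42 genes described here encode kinesins, cytoplasmic dynein with its partner dynactin, and proteins of the mitotic spindle, kinetochore and centrosome. They were chosen by name, for what their proteins are, with earlier results of these data known, and were found through their Ensembl identifiers in all 5 count tables of an APEX-seq atlas that lists 60675 genes. They comprise 12 transport kinesins and kinesin light chains, 13 mitotic or microtubule-regulating kinesins, 7 dynein and dynactin subunits, and 10 spindle, kinetochore and centrosome proteins. All 42 had a median of at least 5 CPM (counts-per-million) in the 18 unlabelled libraries of the 9 constructs, and all 42 passed the filter on low counts in every table.

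Kinesins and cytoplasmic dynein are motors that walk along microtubules: most transport kinesins carry vesicles, mitochondria or RNA towards the plus end, and dynein, activated by dynactin, carries cargo towards the minus end. During mitosis other kinesins slide, cross-link or shorten microtubules, while TPX2, NUMA1 and ASPM organise spindle poles and NDC80 with NUF2 ties kinetochores to microtubules. Some mRNAs of motor and centrosome proteins are known to be localised in cells, and the question asked of each construct is which of these mRNAs lie near it.

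In APEX-seq, the peroxidase APEX2 is fused to a localisation sequence and, given biotin-phenol and a brief pulse of hydrogen peroxide, tags RNA close to it with biotin so that it can be pulled down and sequenced. All cells were HEK293T, an established human embryonic kidney line, with the fusion stably expressed. The 9 constructs were NLS (nucleus), NIK (nucleolus), LMA (nuclear lamina), NucPore (nuclear pore), NES (cytosol), ERM (ER membrane, cytosolic face), KDEL (ER lumen), OMM (outer mitochondrial membrane) and MITO (mitochondrial matrix). Each construct had 2 labelled and 2 unlabelled poly(A) libraries, the unlabelled cells differing only in that peroxide was left out. Further libraries held MITO total RNA without poly(A) selection (2 labelled, 2 unlabelled), OMM and NES cells in cycloheximide, puromycin or the uncoupler CCCP (2 labelled and 2 unlabelled each), and biochemical nuclear and cytosol fractions (2 each). OMM and NES cells were also given nocodazole, which depolymerises microtubules, for 3, 6, 9 or 30 min or 2 h, with 2 labelled libraries a time and unlabelled libraries at 3 and 30 min only. The design text calls the 2 libraries of a group biological replicates, and with 2 a group the spread was estimated over all groups of a table. Drug doses are not given in the labels used here, and neither the drug nor the nocodazole table holds untreated libraries, so a drug effect itself could not be tested.

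Libraries held 9330259 to 76714068 counts for the constructs, 22749527 to 55763066 for the drugs, 15473060 to 33966883 for nocodazole and 34961110 to 44973261 for the fractions, and the MITO total RNA libraries went down to 2835969. The HEK293T markers VIM, KRT18, NEFL, NEFM and LIN28B were expressed in all 18 unlabelled libraries (KRT8 from 0.034 to 44.1 CPM). The medians of ALB, PTPRC, CD3E, COL1A2 and HBB, markers of other cell types, were 0 CPM. The highest single values among these were 3.95 CPM of ALB and 5.89 CPM of PTPRC. In 8 libraries over 5% of the well-expressed genes had no count at all. These sparse libraries were 3 of the 4 unlabelled OMM libraries in nocodazole (11.52% to 16.26%), an unlabelled NES library at 3 min of nocodazole (6.77%), an unlabelled OMM library in cycloheximide (7.75%), and labelled libraries of MITO total RNA (6.37%), NIK (6.06%) and ERM (5.02%). Values without the sparse libraries are given for nocodazole, and each of the others was left out once. Without the sparse OMM library in cycloheximide the calls of KLC1, DYNLT1 and DCTN1 in that labelling were lost, without the ERM one those of KIF22, DYNC1LI1 and DYNC1H1, and without the NIK one those of KIF20B and CENPE. The other calls in these labelling comparisons, and KIF11 in MITO total RNA, still passed without the sparse library.

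In unlabelled cells the 42 mRNAs spanned a wide range once levels were divided by the length of the principal transcript. The dynein light chain DYNLL1 had the highest median, 299.5 CPM per kb (range over 18 libraries 193 to 421), followed by the light chain DYNLT1 at 126 and the spindle assembly factor TPX2 at 82.7. KIF11, the plus-end motor that pushes spindle poles apart, stood at 41.1 CPM per kb (30.0 to 61.5). KIF13B (0.999), the neuronal kinesin KIF5C (3.96) and the centrosome protein CEP192 (4.95) had the lowest medians. DYNLT1 and TPX2 overlapped in range (98.0 to 182 and 64.0 to 121), as did the 3 lowest, so the order of such neighbours is within the spread of libraries.

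Of the 42 members, 20 rose and 6 fell in labelled over unlabelled libraries in at least 1 construct at an adjusted p under 0.05, and 17 passed in none. The share of all genes called in at least 1 construct was not computed, so these counts have no background beside them. DCTN1, the dynactin subunit that binds dynein and microtubules, was the 1 member called in both directions, higher in NES and lower in LMA. A CPM is a share of a bulk library, so more of a transcript near the construct, more of it per cell and more cells that hold it cannot be told apart. Different members stood out at different constructs: KIF11 rose in MITO labelling, KIF1A and KIF5C in OMM labelling, and ASPM in ERM and LMA labelling, each while most other members of its role did not pass.

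**Figure D1:**
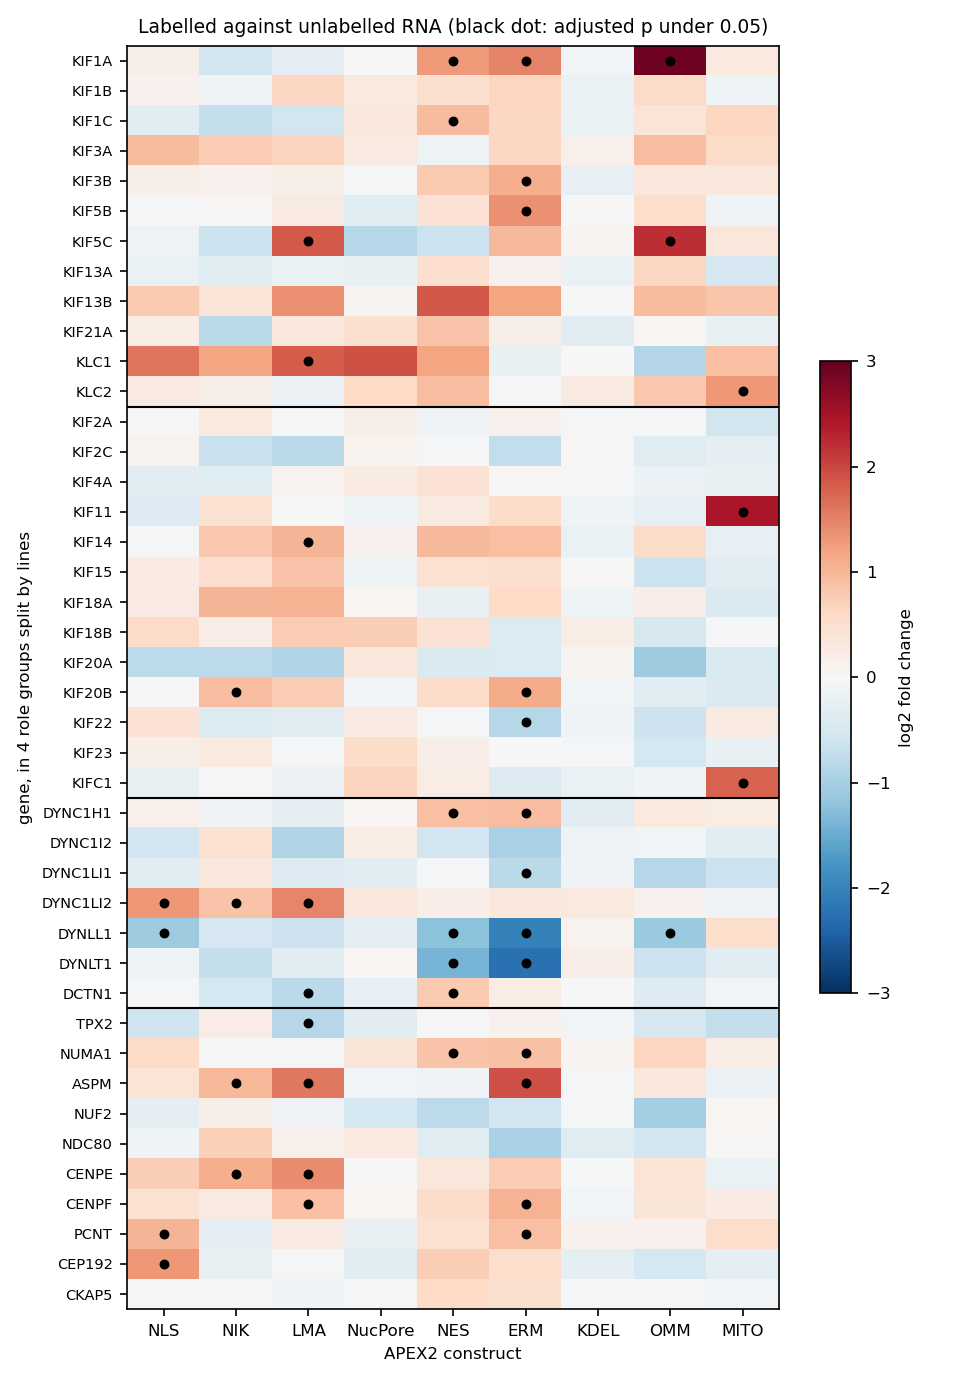
Log2 fold change of labelled over unlabelled libraries (colour) for the 42 genes (rows, by role) in the 9 constructs (columns), each from 2 labelled and 2 unlabelled libraries, cells with a black dot having passed at an adjusted p under 0.05. ERM had the most such genes, 13, and NucPore and KDEL had none.

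Counts by construct have to be read against all 22680 genes tested. In ERM labelling 9 members rose (5.26% of all genes did) and 4 fell (7.6%), and among the 11853 genes averaging 5 CPM or more the shares were 10% and 13.8%, against 21.4% and 9.52% of members. In LMA labelling 7 rose (all genes 3.67%) and 2 fell (4%). In NES labelling 5 rose (1.38%) and 2 fell (2.5%), and in NLS labelling 3 rose (2.78%) and 1 fell (2.42%). NIK had 4 higher (1.28%) and 0 lower (3.96%), OMM 2 higher (3%) and 1 lower (1.98%), and MITO 3 higher (0.873%) and 0 lower (0.181%). For NLS and OMM the members' shares, 7.14% and 4.76% higher, lay close to the 5.19% and 5.72% of genes with at least 5 CPM, so the counts in these constructs were near the background. NucPore and KDEL labelling had 0 members and 0% of all genes in both directions by edgeR's quasi-likelihood test. At an unadjusted p under 0.05, 6 members passed in NucPore and 0 in KDEL, and DESeq2 called 1 and 0.

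Median log2 fold changes over the 42 members were 0.43 in NES and 0.40 in ERM, where the medians over genes of at least 5 CPM were 0.04 and 0.00. In LMA the members' median was -0.0016, in OMM -0.05 and in MITO -0.10, beside 0.01, 0.07 and -0.04. In OMM labelling 11 of 12 transport kinesins lay above 0 (median 0.60) and 11 of 13 mitotic kinesins below 0 (median -0.32). Only 2 of the first and 0 of the second passed the test, and the share of all genes on each side of 0 is not given here. Over the 42 members Spearman's rho between transcript length and OMM log2 fold change was 0.685. Role and length were not separated by a test. NES labelling also had its highest role median in the transport kinesins (0.81, with 10 of 12 above 0). In ERM labelling the spindle proteins and transport kinesins had medians of 0.65 and 0.63, and the dynein and dynactin genes -0.82.

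Among the transport kinesins, KIF1A, a fast plus-end motor of synaptic vesicle precursors, gave the largest change of any member in any construct, in OMM labelling. Its labelled OMM libraries held 691 and 837 CPM and its unlabelled ones 83.1 and 119. The log2 fold change was 2.92 ± 0.32 (± standard error; adjusted p = 1.63e-07 by edgeR's quasi-likelihood test with Benjamini-Hochberg adjustment over all genes), and values in parentheses after this are of the same kind. KIF1A lies on chromosome 2, from 240713761 to 240821036 on the minus strand of GRCh38, and no other annotated exon overlaps its exons. In the other 8 constructs the labelled libraries lay between 84.4 and 239 CPM. It also rose in ERM labelling, with 223 and 181 CPM labelled and 62.7 and 82.2 unlabelled (1.48 ± 0.31, adjusted p = 0.00063). In NES labelling it reached 146 and 152 CPM against 29.7 and 92.7 (1.29 ± 0.31, adjusted p = 0.00913), where the unlabelled pair lay far apart and the call was lost without the first of that pair or without the second labelled library. The 29.7 CPM was the lowest of the 18 unlabelled libraries of the constructs, whose median was 124. The nuclear constructs NIK and LMA had KIF1A lower in both labelled libraries than in both unlabelled ones, without passing the test.

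KIF5C, a kinesin-1 heavy chain best known from neurons, was the other motor to rise in OMM labelling. Labelled OMM libraries held 181 and 201 CPM and unlabelled ones 31.5 and 50.3 (2.22 ± 0.39, adjusted p = 0.000265). In NES the order was turned, with 37.2 and 36.1 CPM labelled and 68.9 and 46.2 unlabelled, a difference that did not pass. KIF5C also rose in LMA labelling, from 7.03 and 6.73 to 25.7 and 23.3 CPM (1.83 ± 0.39, adjusted p = 0.0018), both ends of that change lying below every OMM library. The 6.73 CPM was the lowest of the 18 unlabelled libraries of the constructs, whose median was 27.5. The labelled LMA libraries did not exceed that median. The ubiquitous paralogue of KIF5C, KIF5B, instead rose in ERM labelling, with 566 and 474 CPM against 219.7 and 185 (1.36 ± 0.23, adjusted p = 3.17e-05). In OMM labelling KIF5B held 284 and 251 CPM against 199 and 172 and did not pass.

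**Figure D2:**
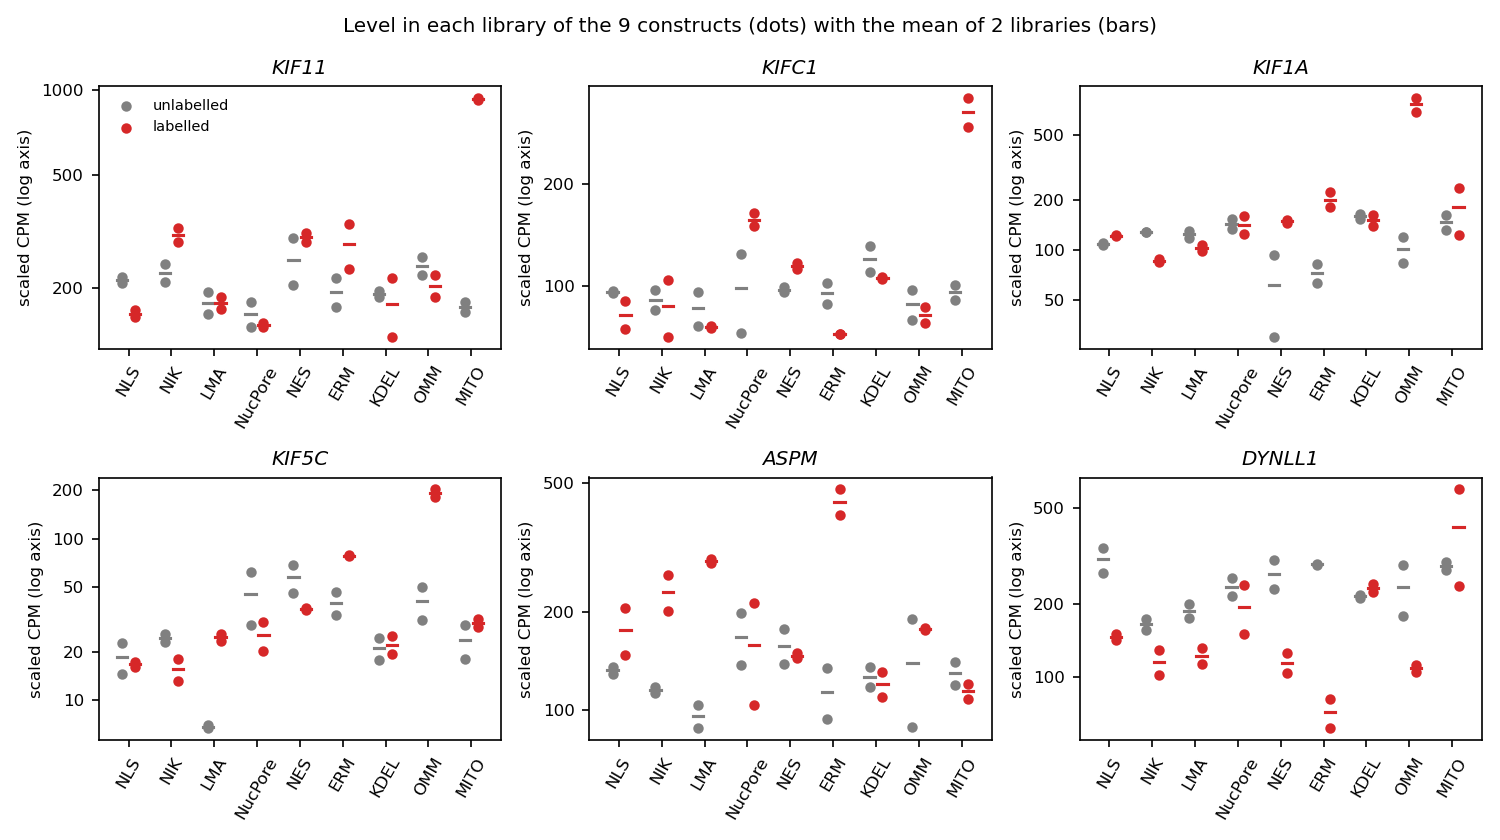
Scaled CPM (log axis) of KIF11, KIFC1, KIF1A, KIF5C, ASPM and DYNLL1 in every library of the 9 constructs, red points labelled and grey points unlabelled, with bars for the mean of 2. KIF11 stands out in the 2 labelled MITO libraries, KIF1A and KIF5C in the 2 labelled OMM libraries, and DYNLL1 is lowest in labelled ERM libraries.

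Of the other transport genes, KIF1C, KIF3B and KLC1 were each called in a single construct. KIF1C, a relative of KIF1A that carries cargo in many cell types, rose in NES labelling, with 253 and 291 CPM against 118 and 164 (0.95 ± 0.23, adjusted p = 0.0126). KIF3B, a subunit of kinesin-2, rose in ERM labelling (1.10 ± 0.29, adjusted p = 0.00804). The kinesin light chain KLC1 rose in LMA labelling, with 84.2 and 83.6 CPM against 25.7 and 22.0 (1.81 ± 0.50, adjusted p = 0.0182), though its exons overlap those of BAG5 and XRCC3 on the other strand and of an unnamed gene on its own. KLC1 was also the member with the smallest p in NucPore, at 98.3 and 64.1 CPM labelled and 13.2 and 29.7 unlabelled, and did not pass there (1.92 ± 0.50, adjusted p = 0.638). The library kit kept strand information, while the strand setting of the counting is not given in the sources used here. Exons of KIF1B (RN7SL731P), KIF2A (IPO11) and DCTN1 (an unnamed gene) also overlap another gene of their own strand. Further members overlap genes of the other strand, among them NUMA1 with IL18BP and LRTOMT.

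KIF11 led the mitotic kinesins and all members in MITO labelling. The 2 labelled poly(A) libraries held 938 and 925 CPM and the unlabelled ones 165 and 179 (2.44 ± 0.22, adjusted p = 1.27e-09), and in the other 32 libraries it ranged from 134 to 335 CPM. The gene lies on chromosome 10, from 92593286 to 92655395 on the plus strand of GRCh38, with no overlapping exon of another gene. KIF11 passed in no other construct: its log2 fold changes were -0.40 ± 0.21 in NLS, 0.45 ± 0.21 in NIK, -0.01 ± 0.21 in LMA and -0.13 ± 0.21 in NucPore. They were 0.26 ± 0.21 in NES, 0.56 ± 0.21 in ERM (adjusted p = 0.0795), -0.12 ± 0.21 in KDEL and -0.24 ± 0.21 in OMM. NIK had both labelled libraries above both unlabelled ones (292 and 326 against 209.7 and 243 CPM), as did ERM (335 and 234 against 216 and 171).

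KIFC1, a minus-end motor that bundles spindle poles, was the other mitotic kinesin to rise in MITO labelling. Its labelled libraries held 295 and 359 CPM and its unlabelled ones 101 and 90.5 (1.78 ± 0.24, adjusted p = 5.9e-06), and its exons overlap the pseudogene RPL12P1 on the other strand. The light chain KLC2 made the third, with 129.6 and 198 CPM against 64.9 and 67.1 (1.31 ± 0.29, adjusted p = 0.0127). Without the second labelled library KLC2 stood at a log2 fold change of 0.97 ± 0.34 with an adjusted p of 0.613, and without either unlabelled library its adjusted p was 0.211 or 0.0951. KIF11 and KIFC1 stayed called without any 1 of the 4 libraries. These values rest on the scaling of libraries to one another, which matters for MITO: as plain shares of all counts only 3 of the 42 members had a higher mean in labelled libraries and 39 a lower one. Those 3 were KIF11, KIFC1 and KLC2. On that unscaled basis KIF11 held 531 and 370 CPM labelled against 151 and 183, KIFC1 167 and 144 against 92.1 and 92.6, and KLC2 73.3 and 79.2 against 59.4 and 68.7.

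MITO total RNA, without poly(A) selection, had 1 member higher (0.617% of 14911 genes) and 0 lower (0.0134%). That member was KIF11, with 534 and 455 CPM labelled and 115 and 99.1 unlabelled (2.21 ± 0.23, adjusted p = 0.00122). Without the first unlabelled library its adjusted p was 0.0512. KIFC1 had 98.3 and 107 CPM against 28.2 and 73.5 and did not pass (1.01 ± 0.37, adjusted p = 0.341), nor did KIF20A (-1.44 ± 0.43, adjusted p = 0.23). As unscaled shares, KIF11 held 168 and 306 CPM labelled against 164 and 142. The difference between poly(A) and total RNA labelling passed for 0 members and 0% of genes in either direction. There 1 member was under 0.05 before adjustment, DESeq2 called 0, and KIF11 differed by 0.27 ± 0.32. KIF1C (0.91 ± 0.41), CENPE (-0.82 ± 0.38) and KLC2 (0.80 ± 0.45) had the smallest p-values, each with an adjusted p of 1.

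Other mitotic kinesins changed less. KIF20B, a kinesin of late mitosis and cytokinesis, rose in NIK labelling, with 193 and 155 CPM against 88.1 and 96.9 (0.92 ± 0.25, adjusted p = 0.0232), and in ERM labelling (1.12 ± 0.25, adjusted p = 0.00141). KIF14, needed for cytokinesis, rose in LMA labelling (1.02 ± 0.31, adjusted p = 0.0395). KIF22, which moves chromosome arms, fell in ERM labelling (-0.86 ± 0.26, adjusted p = 0.0214). The other 8 of this role, KIF2A, KIF2C, KIF4A, KIF15, KIF18A, KIF18B, KIF20A and KIF23, passed in no construct, and neither did the transport kinesins KIF1B, KIF3A, KIF13A, KIF13B and KIF21A.

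The dynein genes split by subunit. DYNC1LI2, a light intermediate chain that links dynein to its cargo adaptors, rose in the 3 constructs inside the nucleus. In NLS it held 272 and 344 CPM labelled and 124 and 125 unlabelled (1.30 ± 0.21, adjusted p = 6.97e-05), and in LMA 303 and 289 against 109.6 and 105 (1.46 ± 0.21, adjusted p = 8.62e-06). In NIK it held 209.6 and 205 against 118 and 112 (0.85 ± 0.20, adjusted p = 0.009). In all 3 the labelled and unlabelled libraries were apart, and the NLS and LMA calls held without any 1 library. The NIK call was lost without either unlabelled library. Its exons overlap 2 unnamed genes of the other strand.

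The light chains DYNLL1 and DYNLT1, small subunits that dynein shares with many other complexes, went the other way. DYNLL1 fell in ERM labelling, from 289.9 and 295 CPM unlabelled to 61.6 and 81.6 labelled (-2.03 ± 0.28, adjusted p = 1.64e-06), and DYNLT1 from 124 and 94.4 to 15.8 and 30.6 (-2.23 ± 0.31, adjusted p = 1.56e-06). Both fell in NES labelling, DYNLL1 from 305 and 231 to 126 and 104 CPM (-1.22 ± 0.27, adjusted p = 0.0056) and DYNLT1 from 132 and 112 to 52.2 and 40.9 (-1.39 ± 0.30, adjusted p = 0.00372). DYNLL1 also fell in OMM labelling (-1.11 ± 0.27, adjusted p = 0.0096) and in NLS labelling (-1.06 ± 0.27, adjusted p = 0.0146), so it was called lower in 4 of the 9 constructs. In MITO its labelled libraries disagreed, at 238 and 596 CPM around unlabelled values of 299 and 278.

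DYNC1H1, the dynein heavy chain that carries the motor, rose in ERM labelling, with 734 and 649 CPM against 388 and 343 (0.92 ± 0.24, adjusted p = 0.00716). It also rose in NES labelling, at 577 and 658 against 283 and 374 (0.91 ± 0.24, adjusted p = 0.0223). DYNC1LI1, the second light intermediate chain, was also called lower in ERM labelling, where its paralogue DYNC1LI2 did not pass. DCTN1 rose in NES labelling, at 336 and 379 CPM against 197 and 221 (0.77 ± 0.22, adjusted p = 0.0394), and fell in LMA labelling, at 137 and 189 against 278 and 292 (-0.81 ± 0.22, adjusted p = 0.0176). DYNC1I2 passed in none.

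Among spindle and centrosome proteins, ASPM, a spindle pole protein, rose most. In ERM labelling it held 398 and 477 CPM against 134 and 93.7 (1.94 ± 0.29, adjusted p = 5.78e-06), in LMA 284 and 291 against 104 and 88.0 (1.58 ± 0.29, adjusted p = 0.00026), and in NIK 201 and 259.5 against 118 and 113 (1.00 ± 0.28, adjusted p = 0.0306). In NES its labelled libraries, at 149.6 and 145 CPM, lay within the range of the unlabelled ones at 177 and 138. CENPF, a large kinetochore and microtubule-binding protein, rose in ERM (1.05 ± 0.20, adjusted p = 0.000173) and LMA labelling (0.90 ± 0.20, adjusted p = 0.00226). CENPE, a kinetochore kinesin that moves chromosomes to the spindle equator, rose in LMA labelling, at 160.3 and 189.6 CPM against 45.5 and 85.8 (1.41 ± 0.32, adjusted p = 0.00279), and in NIK labelling (1.08 ± 0.31, adjusted p = 0.0349).

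PCNT, a scaffold of the pericentriolar material, rose in NLS labelling, with 163 and 181 CPM against 89.9 and 79.2 (1.02 ± 0.24, adjusted p = 0.00575), and in ERM labelling (0.91 ± 0.24, adjusted p = 0.0066). CEP192, which recruits kinases to centrosomes, rose in NLS labelling, with 43.3 and 43.0 CPM against 19.2 and 15.8 (1.30 ± 0.37, adjusted p = 0.0335). The 15.8 CPM was the lowest of the 18 unlabelled libraries of the constructs, whose median was 39.4. NUMA1, which anchors dynein at spindle poles, rose in ERM (0.88 ± 0.21, adjusted p = 0.00287) and NES labelling (0.86 ± 0.21, adjusted p = 0.0118). TPX2 fell in LMA labelling, with 138 and 177 CPM against 261 and 309 (-0.86 ± 0.24, adjusted p = 0.0182). NUF2, NDC80 and CKAP5 passed in none of the 9 constructs.

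With 2 libraries a group, single libraries decided many calls. Without 1 library at a time, 8 to 13 members were called in ERM, 5 to 7 in LMA, 1 to 2 in NLS and 2 to 7 in OMM. In NIK the count ran from 0, without the first unlabelled library, to 5. In NES it ran from 0, without the second labelled library, to 12, without the second unlabelled one. Calls that held without any 1 library were KIF1A, KIF5B, DYNLL1, DYNLT1, ASPM and CENPF in ERM, KIF5C, DYNC1LI2, ASPM and CENPF in LMA, and KIF1A and KIF5C in OMM. In NLS only DYNC1LI2 held, in MITO KIF11 and KIFC1, and in NIK and NES none did. With only the 4 libraries of the comparison in the fit, 0 members passed in NES and 0 in NIK.

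In NucPore and KDEL labelling the members nearest to passing were these. In NucPore, KIFC1 had a log2 fold change of 0.68 ± 0.23 and KIF5C of -0.85 ± 0.38, with adjusted p of 0.779 and 0.787. In KDEL, DYNC1LI2 stood at 0.30 ± 0.20, DYNC1H1 at -0.33 ± 0.24 and KIF21A at -0.34 ± 0.29, all with an adjusted p of 1.

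Differences between constructs were tested directly against cytosolic NES labelling, and OMM and MITO were compared with each other. OMM minus NES labelling passed higher for 2 members (1.58% of all genes) and lower for 1 (0.141%): KIF5C (2.88 ± 0.54, adjusted p = 0.00163), KIF1A (1.63 ± 0.43, adjusted p = 0.0371) and, lower, DCTN1 (-1.16 ± 0.31, adjusted p = 0.0448). Only KIF5C held there without any 1 library, and KIF11 stood at -0.50 ± 0.29. ERM minus NES labelling passed for ASPM alone (2.15% of genes higher, 1.69% lower), at 2.04 ± 0.40, adjusted p = 0.00139, and held without any 1 library. KIF5C (1.62 ± 0.54, adjusted p = 0.0943) and KIF5B (0.92 ± 0.31, adjusted p = 0.108) came next, and KIF11 was 0.29 ± 0.29. NLS minus NES labelling had 1 member higher (1.35% of genes), DYNC1LI2 at 1.11 ± 0.29, adjusted p = 0.0284, and 1 lower (0.922%), KIF1C at -1.26 ± 0.33, adjusted p = 0.0293. DYNLT1 missed there (1.28 ± 0.42, adjusted p = 0.123), KIF11 stood at -0.66 ± 0.29, and neither call held without every library.

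MITO minus NES labelling had 3 members higher (0.701% of genes) and 0 lower (0.22%): KIF11 at 2.18 ± 0.30, adjusted p = 1.39e-05, KIFC1 at 1.54 ± 0.33, adjusted p = 0.00859 and DYNLL1 at 1.75 ± 0.38, adjusted p = 0.013. Of these KIF11 held without any 1 library, and DYNLL1, whose labelled MITO libraries lay far apart, was lost without the second of them. MITO minus OMM labelling had KIF11 (2.67 ± 0.30, adjusted p = 1.86e-07), KIFC1 (1.88 ± 0.33, adjusted p = 0.000374) and DYNLL1 (1.64 ± 0.38, adjusted p = 0.0113) higher (0.807% of genes) and KIF1A lower (-2.62 ± 0.43, adjusted p = 0.000194; 1.32%). All but DYNLL1 held without any 1 library. The 4 comparisons with NES share its libraries.

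Other genes of the same machinery were counted from 3 lists that exclude the members: 18 tested kinesins, 31 genes of dynein, dynactin and motor adaptors, and 65 of the spindle, kinetochore, midzone and centrosome. Among genes with at least 5 CPM, 1.67% rose and 0.346% fell in MITO labelling and 0.864% and 0.0188% in MITO total RNA. The shares were 10% and 13.8% in ERM and 5.72% and 3.8% in OMM. Counts near such shares say nothing particular of a list, and no test was run on the lists. In MITO labelling 0 of 18, 0 of 31 and 4 of 65 rose and none fell. The 4 were the gamma-tubulin gene TUBG1 (1.96 ± 0.21), TUBGCP4 of the gamma-tubulin ring complex (2.62 ± 0.29), SKA3 of the outer kinetochore (2.28 ± 0.44) and the midzone cross-linker PRC1 (0.86 ± 0.19). SKA3 and TUBGCP4 rose in MITO total RNA too (3.34 ± 0.37 and 1.56 ± 0.30), where they were 2 of 65. In ERM labelling 2 of 18 kinesins fell, 5 of 31 dynein-related genes rose and 4 fell, and 2 of 65 spindle genes rose and 11 fell, among them DCTN3 (-2.01 ± 0.31), HAUS1 (-2.28 ± 0.37) and ZWINT (-1.10 ± 0.19). In OMM labelling none rose, and 1 of 18, 1 of 31 and 3 of 65 fell, including the kinesin-2 subunit KIFAP3 (-1.19 ± 0.35), ACTR10 (-0.86 ± 0.24) and AURKB (-1.001 ± 0.26).

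In NES labelling 1 of 31 dynein-related genes rose, the dynactin filament subunit ACTR1A (0.87 ± 0.18), and 1 fell, DYNLT3 (-2.03 ± 0.58), while 2 of 65 spindle genes fell, HAUS1 (-1.60 ± 0.36) and NSL1 (-1.28 ± 0.37). NLS labelling raised 3 of 31, led by the motor adaptor MAPK8IP3 (2.77 ± 0.50) and the dynein regulator NDEL1 (1.41 ± 0.31), and lowered 1. It raised 3 of 65 spindle genes, among them TUBGCP6 (2.07 ± 0.41) and CENPJ (1.73 ± 0.38), and lowered 3. LMA labelling raised 1 of 18, 2 of 31 and 5 of 65 and lowered 0, 3 and 5, led by BIRC5 (-1.001 ± 0.20), TUBG1 (-1.05 ± 0.21), TUBGCP4 (1.27 ± 0.27) and ACTR1A (-0.82 ± 0.18). NIK labelling raised 0, 2 and 2 and lowered 1, 0 and 3, led by TUBG1 (-1.14 ± 0.21) and CEP135 (1.40 ± 0.34). TUBG1 thus rose in MITO and fell in LMA and NIK labelling. NucPore and KDEL had none. Among genes with at least 5 CPM, 2.64% rose and 4.78% fell in NES and 5.19% and 4.62% in NLS labelling. In LMA the shares were 6.73% and 7.66%, and in NIK 2.45% and 6.97%.

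Biochemical fractions gave a second view of nuclear and cytosolic mRNA that uses no APEX2. In the nuclear fraction 10 members were higher and 10 lower than in the cytosol fraction, beside 34.2% and 27.8% of 19115 genes tested. Among genes with at least 5 CPM 24.7% were higher in the nucleus, near the 23.8% of members, and 38.9% were lower. ASPM had the largest nuclear excess, at 507 and 409 CPM in the nuclear and 93.8 and 97.9 in the cytosol fraction (2.26 ± 0.18, adjusted p = 2.15e-06). DYNC1H1 held 722 and 701 CPM in the nucleus and 215 and 239 in the cytosol (1.65 ± 0.17, adjusted p = 7.63e-06). CENPF (1.48 ± 0.17, adjusted p = 1.54e-05), PCNT (1.51 ± 0.17, adjusted p = 1.58e-05), DYNC1LI2 (1.39 ± 0.17, adjusted p = 2.4e-05) and KLC1 (1.00 ± 0.23, adjusted p = 0.0022) were also higher in the nuclear fraction. In each of these 6 both nuclear libraries lay above both cytosol ones. The same held for members that did not pass, such as CKAP5 and DCTN1, so it adds no support to the calls. By construct, PCNT and DYNC1LI2 of these 6 were called higher in NLS labelling, and ASPM, CENPF, DYNC1H1 and KLC1 were not. ASPM, CENPF and KLC1 were called higher in LMA labelling, and DYNC1H1 only in ERM and NES labelling.

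On the cytosolic side stood the light chains, with DYNLL1 at 431 and 438 CPM in the cytosol and 194 and 166 in the nucleus (-1.27 ± 0.17, adjusted p = 4.09e-05) and DYNLT1 at 161 and 157 and 86.5 and 73.1 (-0.99 ± 0.17, adjusted p = 0.000348). KIF2A, which shortens microtubules from their ends (-1.04 ± 0.18, adjusted p = 0.000296), KIF3B (-1.30 ± 0.22, adjusted p = 0.000308) and KIF5B (-0.70 ± 0.16, adjusted p = 0.00222) were cytosolic too. KIF11 held 208 and 205 CPM in the cytosol and 107 and 113 in the nucleus (-0.90 ± 0.16, adjusted p = 0.000432). Without 1 library 14 to 22 members were called, and the 6 nuclear and 6 cytosolic members named so far held throughout. The nuclear calls of CENPE, KIF1A, KIF18B and CEP192 and the cytosolic ones of DYNC1LI1, KIF13A, NDC80 and KIF4A were each lost at least once. Of the pathway lists, 9 of 18 kinesins were nuclear and 3 cytosolic, 7 and 15 of 31 dynein-related genes, and 13 and 33 of 65 spindle genes. Of all genes with at least 5 CPM, 24.7% were nuclear and 38.9% cytosolic. The cytokinesis scaffold ANLN (3.10 ± 0.18), TUBGCP6 (3.29 ± 0.26), MAPK8IP3 (3.73 ± 0.31) and KIFC2 (4.82 ± 0.41) led the pathway lists, all nuclear.

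**Figure D3:**
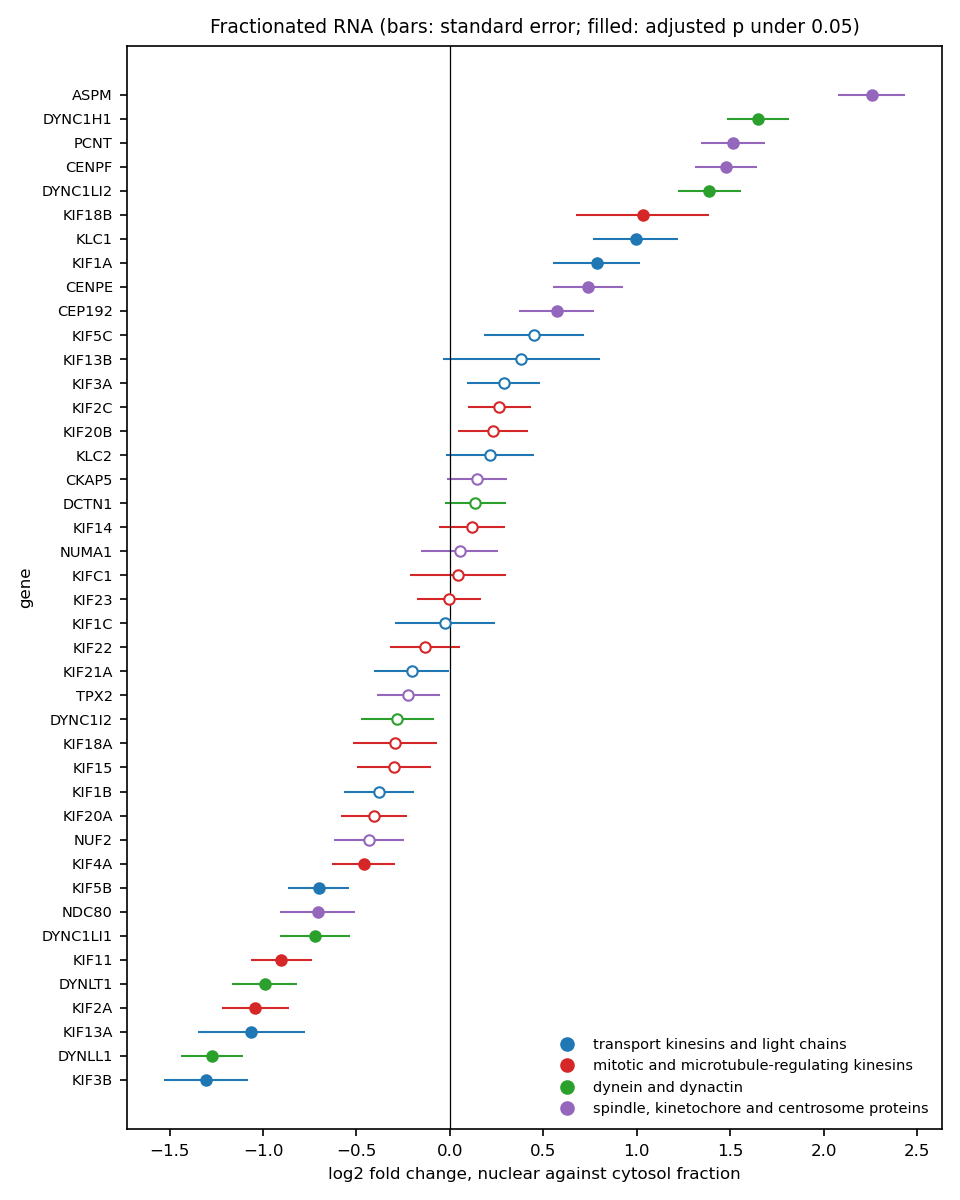
Log2 fold change of the nuclear over the cytosol fraction for the 42 genes by role, with standard errors, from 2 libraries a fraction; filled points passed at an adjusted p under 0.05. ASPM and DYNC1H1 lie furthest to the nuclear side and KIF3B and DYNLL1 furthest to the cytosolic side.

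Drug-treated OMM and NES cells were analysed next, each drug against its own unlabelled cells. Cycloheximide stalls ribosomes on mRNA, puromycin releases nascent chains and takes ribosomes off, and CCCP collapses the mitochondrial membrane potential. KIF1A was high in OMM labelling under all 3. Labelled OMM libraries held 949.9 and 896 CPM in cycloheximide, 1554 and 1805 in puromycin and 1054 and 1194 in CCCP. Unlabelled ones held 81.2 and 86.4, 149.5 and 162 and 169 and 124. The log2 fold changes were 3.46 ± 0.26, adjusted p = 1.82e-08, 3.43 ± 0.26, adjusted p = 7.39e-07 and 2.94 ± 0.26, adjusted p = 1.11e-06, and each held without any 1 library. KIF5C held 321 and 318 CPM in labelled cycloheximide libraries, 173 and 179 in puromycin and 161 and 167 in CCCP, against unlabelled values from 11.1 to 45.5. Its log2 fold changes were 2.90 ± 0.69, adjusted p = 0.00568, 3.18 ± 0.70, adjusted p = 0.0176 and 2.56 ± 0.68, adjusted p = 0.0257, of which only the first held without any 1 library.

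In OMM labelling with cycloheximide 4 members rose (12.4% of 21441 genes) and 7 fell (5.35%). KIF1B, a mitochondrial and vesicle motor (0.61 ± 0.19, adjusted p = 0.0285), and KLC1 (1.07 ± 0.36, adjusted p = 0.0473) joined KIF1A and KIF5C. KIF15, which backs up KIF11 on the spindle, fell from 117 and 193 to 47.5 and 53.3 CPM (-1.62 ± 0.29, adjusted p = 0.000463). DYNLL1 (-0.97 ± 0.21, adjusted p = 0.0031), DCTN1 (-0.89 ± 0.21, adjusted p = 0.00612), NUF2 (-1.19 ± 0.32, adjusted p = 0.0132) and DYNLT1 (-0.81 ± 0.24, adjusted p = 0.0246) fell as well, and so did KIF2C (-0.74 ± 0.22, adjusted p = 0.0284) and DYNC1LI1 (-0.74 ± 0.24, adjusted p = 0.0363). KIF11 did not pass, with 171 and 194 CPM labelled within an unlabelled pair of 279 and 147 (-0.23 ± 0.21, adjusted p = 0.47). The second unlabelled library is the sparse one, and 4 to 14 members were called without 1 library. KIF1A, KIF5C, KIF15 and DYNLL1 held without any 1 library, and the other 7 each lost their call without at least 1, with KLC1, DYNLT1 and DCTN1 losing it without the sparse one.

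In OMM labelling with puromycin 5 members were higher (0.942% of genes) and 1 lower (1.18%). Besides KIF1A and KIF5C, KIF1C (0.84 ± 0.16, adjusted p = 0.00491), KIF5B (0.86 ± 0.20, adjusted p = 0.0249) and KIF3B (0.73 ± 0.19, adjusted p = 0.0461) rose, all transport kinesins, and DYNLL1 fell (-1.29 ± 0.21, adjusted p = 0.00195). Only KIF1A held without any 1 library (1 to 4 called), and KIF11 stood at 0.60 ± 0.21, adjusted p = 0.212. In CCCP 8 rose (3.27%) and 4 fell (3.57%). KIF1C (1.11 ± 0.16, adjusted p = 0.000144), KIF1B (1.18 ± 0.19, adjusted p = 0.000472), PCNT (1.07 ± 0.20, adjusted p = 0.00172), KIF5B (0.95 ± 0.20, adjusted p = 0.00501), KIF3B (0.83 ± 0.19, adjusted p = 0.00805) and NUMA1 (0.61 ± 0.18, adjusted p = 0.0446) rose. DYNLL1 (-1.45 ± 0.21, adjusted p = 0.000224), DYNLT1 (-1.45 ± 0.24, adjusted p = 0.000713), KIF22 (-1.02 ± 0.27, adjusted p = 0.0244) and DYNC1LI1 (-0.82 ± 0.24, adjusted p = 0.0398) fell, while KIF11 stood at 0.43 ± 0.21, adjusted p = 0.254. KIF1A, KIF1B, KIF1C, KIF5B, DYNLL1, DYNLT1 and PCNT held without any 1 library.

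NES labelling in cycloheximide gave the most calls of any labelling comparison, 18 members higher (7.91% of all genes, 12.3% of those with at least 5 CPM, 42.9% of members) and 6 lower (7.77%). KIF1B held 241 and 230.2 CPM labelled and 71.6 and 81.2 unlabelled (1.63 ± 0.19, adjusted p = 5.12e-06). KIF11 held 359 and 419 and 175 and 196 (1.07 ± 0.21, adjusted p = 0.00129). DYNC1H1 (1.36 ± 0.21, adjusted p = 0.000107), the microtubule polymerase CKAP5 (1.23 ± 0.20, adjusted p = 0.00017), KIF5B (1.19 ± 0.20, adjusted p = 0.000289), KIF3B (0.96 ± 0.19, adjusted p = 0.00105), ASPM (1.39 ± 0.28, adjusted p = 0.00165), KIF2A (1.40 ± 0.31, adjusted p = 0.00331), KIF1C (0.75 ± 0.16, adjusted p = 0.00189) and CENPF (1.04 ± 0.22, adjusted p = 0.00193) rose. The light chains were again low, DYNLL1 at 41.5 and 63.5 CPM against 183 and 257 (-2.07 ± 0.22, adjusted p = 1.57e-06) and DYNLT1 at 20.9 and 27.95 against 93.8 and 141 (-2.26 ± 0.25, adjusted p = 2.61e-06). Without 1 library 16 to 23 members were called, and 12 of the 24 held throughout. These were KIF21A and all members named here, KIF11 included, but KIF2A, whose call was lost without the first unlabelled library.

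In NES labelling with puromycin 8 members rose (3.24%) and 2 fell (4.58%), and with CCCP 14 rose (3.28%) and 2 fell (5.08%). DYNLL1 and DYNLT1 were the ones that fell in both, with log2 fold changes of -1.78 ± 0.22 and -1.58 ± 0.24 in puromycin and -1.64 ± 0.22 and -1.81 ± 0.25 in CCCP. KIF11 held 314 and 326 CPM against 164 and 183 in puromycin (0.88 ± 0.21, adjusted p = 0.0115) and 338 and 429 against 206 and 206 in CCCP (0.90 ± 0.21, adjusted p = 0.00903). Both KIF11 calls were lost without the second labelled or either unlabelled library. Transport kinesins rose in both: KIF1B (0.78 ± 0.19, adjusted p = 0.0117 and 1.19 ± 0.19, adjusted p = 0.000292), KIF5B (0.95 ± 0.20, adjusted p = 0.00419 and 1.01 ± 0.20, adjusted p = 0.0023) and KIF1A (0.83 ± 0.24, adjusted p = 0.0379 and 1.09 ± 0.24, adjusted p = 0.00578). In puromycin KIF1C (0.80 ± 0.16, adjusted p = 0.00231), KIF3B (0.94 ± 0.19, adjusted p = 0.0026), NUMA1 (0.85 ± 0.18, adjusted p = 0.00431) and DYNC1H1 (0.79 ± 0.20, adjusted p = 0.0195) completed the set. In CCCP KIF1C (0.71 ± 0.16, adjusted p = 0.00542), NUMA1 (0.95 ± 0.18, adjusted p = 0.00146), CKAP5 (0.88 ± 0.19, adjusted p = 0.00582), CENPF (0.92 ± 0.22, adjusted p = 0.00893), KIF14 (1.08 ± 0.26, adjusted p = 0.0118) and CENPE (1.25 ± 0.32, adjusted p = 0.0177) were among those that rose. Without 1 library 5 to 9 members were called in puromycin and 5 to 12 in CCCP. KIF1C, KIF3B, DYNLL1 and DYNLT1 held in puromycin without any 1 library, and KIF1B, KIF5B, DYNLL1, DYNLT1 and NUMA1 in CCCP, and each of the other calls was lost at least once. All 12 transport kinesins lay above 0 in NES labelling with CCCP, with a median of 0.84 beside 0.06 for genes of at least 5 CPM. The share of all genes above 0 is not given here.

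**Figure D4:**
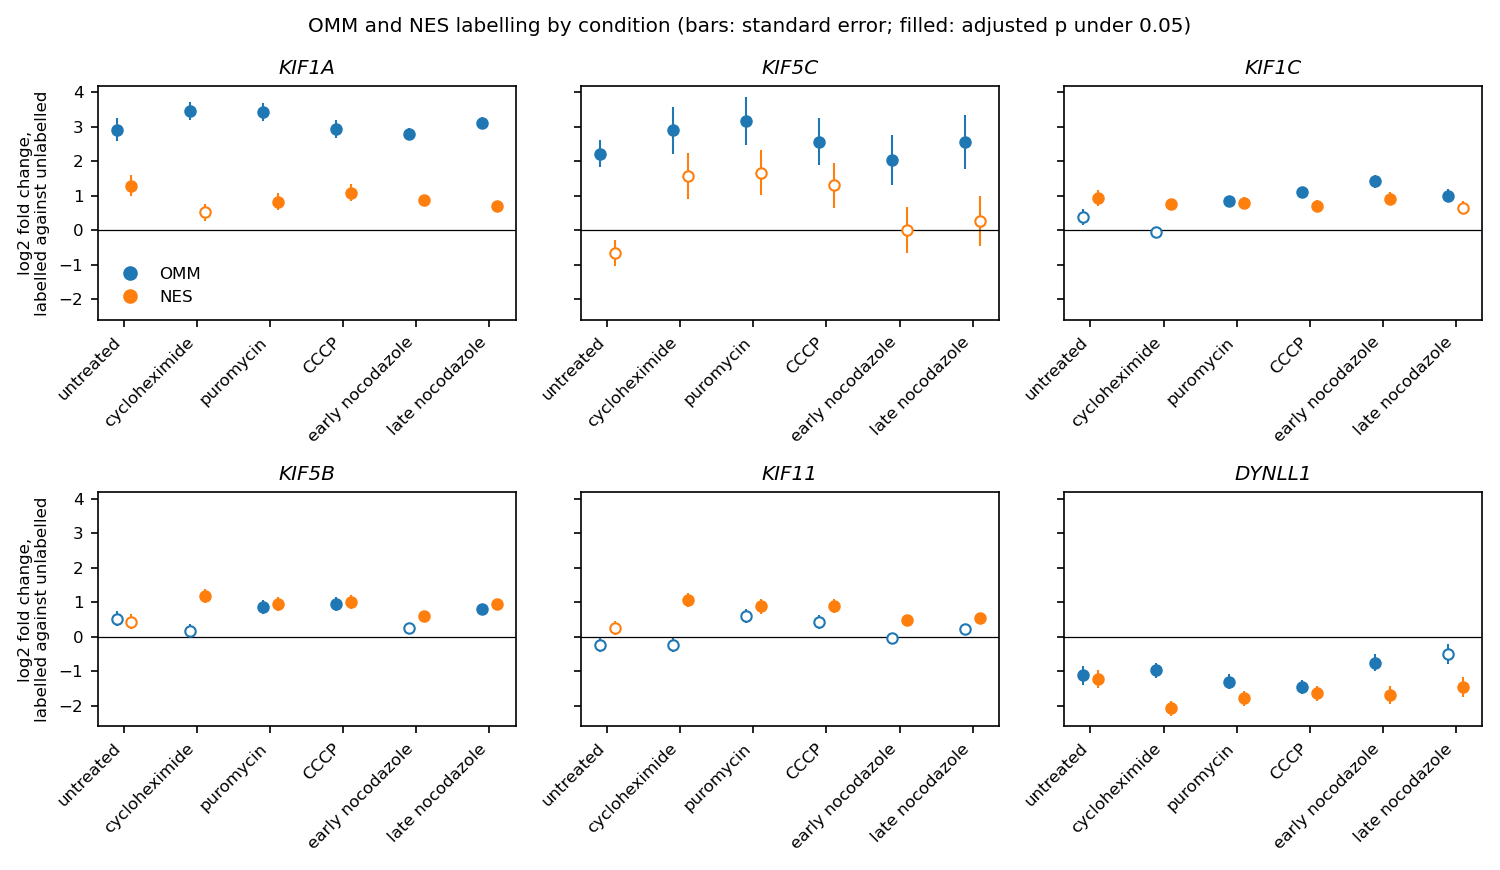
Log2 fold change of labelled over unlabelled libraries with standard errors for KIF1A, KIF5C, KIF1C, KIF5B, KIF11 and DYNLL1 in OMM and NES labelling, untreated and in each drug and nocodazole window. KIF1A lies between 2.80 and 3.46 in OMM labelling in all 6 conditions, above its NES values in each, and KIF11 lies nearer to 0 in OMM than in NES labelling in cycloheximide.

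The difference between OMM and NES labelling was tested within each drug. In cycloheximide 3 members were higher at OMM (9.38% of genes) and 13 lower (4.16%). KIF1A was higher (2.94 ± 0.35, adjusted p = 8.03e-06), as were DYNLT1 (1.45 ± 0.34, adjusted p = 0.00629) and DYNLL1 (1.10 ± 0.30, adjusted p = 0.0175), which had fallen less at OMM. KIF15 (-2.62 ± 0.40, adjusted p = 0.000155), CKAP5 (-1.47 ± 0.27, adjusted p = 0.000988), KIF11 (-1.29 ± 0.30, adjusted p = 0.00549) and DCTN1 (-1.25 ± 0.30, adjusted p = 0.00746) were lower and, with KIF1A, held without any 1 library. KIF21A (-2.54 ± 0.65), KIF14 (-1.47 ± 0.37), KIF20B (-1.43 ± 0.37), KIF1B (-1.02 ± 0.26) and KIF1C (-0.81 ± 0.22) were lower too, but each lost its call without at least 1 library. The count ran from 8 to 20 without 1 library, and without the sparse unlabelled OMM library the calls of DYNLL1, KIF1B, KIF1C, KIF4A, KIF5B, KIF14 and DYNC1H1 were lost.

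In puromycin KIF1A alone passed (2.60 ± 0.34, adjusted p = 0.00306; 0.0979% of genes higher, 0.014% lower), and the call was lost without either labelled NES library. DYNLT1 (0.86 ± 0.34), NUMA1 (-0.47 ± 0.25) and KIF11 (-0.28 ± 0.29) did not pass. In CCCP 0 members passed either way (0.00933% of genes higher, 0% lower), and 2 were under 0.05 before adjustment. DESeq2 called 1. KIF1A was nearest, at 1.84 ± 0.34, adjusted p = 0.0773, before PCNT (0.61 ± 0.27) and KIF1C (0.40 ± 0.22), with KIF11 at -0.47 ± 0.29. OMM labelling in cycloheximide minus that in puromycin had 0 members higher (4.53%) and 4 lower (1.08%): KIF15 (-2.01 ± 0.40, adjusted p = 0.0042), DCTN1 (-1.29 ± 0.30, adjusted p = 0.0127), KIF1C (-0.90 ± 0.22, adjusted p = 0.0178) and KIF14 (-1.29 ± 0.37, adjusted p = 0.0455). KIF15 held without any 1 library, and KIF11 stood at -0.83 ± 0.30, adjusted p = 0.119.

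Among the pathway lists, NES labelling in cycloheximide raised 2 of 18, 8 of 31 and 16 of 65 genes and lowered 1, 3 and 6, with DYNLRB1 (-1.82 ± 0.26), CDK5RAP2 (1.72 ± 0.26), the dynein regulator PAFAH1B1 (1.15 ± 0.18) and CLASP1 (1.44 ± 0.23) in front. OMM labelling in cycloheximide raised 1, 4 and 1 and lowered 2, 2 and 12, with ACTR10 (-1.26 ± 0.23), the mitochondrial motor adaptor RHOT2 (-1.63 ± 0.30) and HAUS5 (-1.33 ± 0.27) falling. OMM labelling with puromycin had 0, 1 and 2 higher and none lower, namely HMMR (1.15 ± 0.24), MAPRE1 (0.71 ± 0.15) and DCTN2 (0.81 ± 0.18). OMM labelling with CCCP had 0, 0 and 2 higher and 0, 1 and 3 lower, led by MAD2L1 (-0.94 ± 0.16) and BUB3 (-0.76 ± 0.14). NES labelling with puromycin had 0, 3 and 6 higher and 1, 1 and 4 lower. With CCCP it had 0, 4 and 2 higher and 0, 3 and 4 lower, each against unlabelled cells in the same drug. The dynein adaptor HOOK3 led both (1.27 ± 0.23 and 1.29 ± 0.23). Among genes with at least 5 CPM, 12.3% rose and 14.2% fell in NES labelling with cycloheximide. With puromycin the NES shares were 4.95% and 8.36%, and with CCCP 5.67% and 9.27%. At OMM they were 16.1% and 9.74%, 1.72% and 2.16%, and 5.23% and 6.51% in the same order.

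Nocodazole removes the tracks these motors walk on. Early times (3, 6 and 9 min) and late times (30 min and 2 h) were each set against the mean of the same unlabelled libraries, so the 2 windows share controls. KIF1A stayed high at OMM throughout, at 805 and 784 CPM at 3 min, 684 and 708 at 6 min, 766 and 851 at 9 min, 972 and 979 at 30 min and 947 and 920.2 at 2 h. Unlabelled OMM libraries held 123 and 167 at 3 min and 59.8 and 106 at 30 min. The log2 fold changes were 2.80 ± 0.15, adjusted p = 4.06e-11 early and 3.12 ± 0.16, adjusted p = 2.72e-11 late. In NES labelling KIF1A held 189.7 to 277 CPM over the 10 labelled libraries and 113 to 143 over the 4 unlabelled ones (0.89 ± 0.14, adjusted p = 0.000155 early and 0.71 ± 0.15, adjusted p = 0.00497 late).

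In OMM labelling early in nocodazole 4 members rose (16.6% of 19611 genes) and 8 fell (4.98%), and late 8 rose (11.5%) and 4 fell (4.13%). KIF1B rose early (1.00 ± 0.15, adjusted p = 6.45e-05) and late (1.48 ± 0.16, adjusted p = 2.44e-06), as did KIF1C (1.42 ± 0.19, adjusted p = 1.29e-05 and 1.01 ± 0.20, adjusted p = 0.00132). KIF5C also rose in both (2.03 ± 0.72, adjusted p = 0.0488 and 2.55 ± 0.78, adjusted p = 0.028), but its unlabelled libraries ran from 0.27 to 84.2 CPM and neither call held without every library. KIF5B (0.81 ± 0.15, adjusted p = 0.00073), CENPE (0.57 ± 0.15, adjusted p = 0.0135), KIF20B (0.92 ± 0.27, adjusted p = 0.0244) and KIF3B (0.99 ± 0.31, adjusted p = 0.0335) were called late. NUF2 fell in both windows (-1.99 ± 0.30, adjusted p = 5.42e-05 and -1.45 ± 0.33, adjusted p = 0.00468), with labelled libraries from 24.2 to 61.5 CPM and unlabelled ones from 66.5 to 222. KIFC1 (-0.78 ± 0.21, adjusted p = 0.0121 and -1.01 ± 0.24, adjusted p = 0.00567), KIF22 (-0.81 ± 0.26, adjusted p = 0.0296 and -1.05 ± 0.29, adjusted p = 0.0155) and the microtubule depolymerase KIF2C (-0.61 ± 0.20, adjusted p = 0.0311 and -0.70 ± 0.22, adjusted p = 0.0335) fell in both. KIF3A (-1.04 ± 0.22, adjusted p = 0.00172), DYNC1LI1 (-0.77 ± 0.24, adjusted p = 0.0261), DYNLL1 (-0.74 ± 0.25, adjusted p = 0.0411) and CKAP5 (-0.39 ± 0.14, adjusted p = 0.0487) fell early. KIF11 did not pass (-0.05 ± 0.13, adjusted p = 0.973 early and 0.23 ± 0.15, adjusted p = 0.375 late). Early, KIF1A, KIF1B, KIF1C, KIF3A, KIFC1 and NUF2 held without any 1 library, and each of the other calls was lost at least once. Late, KIF1A, KIF1B, KIF1C, KIF5B, KIFC1, NUF2 and CENPE held, and each of the other calls was lost at least once.

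Because 3 of the 4 unlabelled OMM libraries were sparse, the same tests were run without these and the sparse NES one, an alternative chosen after seeing the data. The only unlabelled OMM library left was the first at 30 min, so the OMM values rest on it alone. That library had the lowest KIF1A of the 4, and the standard errors hold no spread between unlabelled OMM libraries. KIF1A then stood at 3.72 ± 0.22 early and 3.98 ± 0.23 late, KIF1B at 1.58 ± 0.25 and 2.00 ± 0.26, NUF2 at -1.93 ± 0.34 and -1.45 ± 0.37, and KIF5C at 1.66 ± 0.32 and 2.12 ± 0.34. Early, 13 members were called, 7 of them among the 12 above, and late 11, with 6 shared. KIF3A (-0.73 ± 0.24), KIF22 (-0.21 ± 0.34), KIFC1 (-0.46 ± 0.29), DYNC1LI1 (-0.50 ± 0.30) and CKAP5 (-0.18 ± 0.20) no longer passed early. Late, KIF1C (0.50 ± 0.20), KIF3B (0.96 ± 0.33), KIF20B (0.59 ± 0.27), KIF22 (-0.51 ± 0.34), KIFC1 (-0.74 ± 0.30) and CENPE (0.53 ± 0.21) no longer passed.

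In NES labelling early in nocodazole 10 members rose (2.39%) and 2 fell (3.93%), and late 9 rose (2%) and 1 fell (3.05%). DYNLL1 fell in both (-1.68 ± 0.25, adjusted p = 0.000103 and -1.46 ± 0.29, adjusted p = 0.00268) and NUF2 early (-1.50 ± 0.30, adjusted p = 0.00189). Besides KIF1A, members that rose in both windows were KIF5B (0.61 ± 0.14, adjusted p = 0.00607 and 0.94 ± 0.15, adjusted p = 0.000326), CENPE (0.72 ± 0.14, adjusted p = 0.00176 and 0.83 ± 0.15, adjusted p = 0.00136), KIF3A (0.79 ± 0.23, adjusted p = 0.0365 and 1.19 ± 0.25, adjusted p = 0.00384), KIF14 (0.90 ± 0.22, adjusted p = 0.011 and 1.08 ± 0.24, adjusted p = 0.00621), CKAP5 (0.72 ± 0.14, adjusted p = 0.00211 and 0.67 ± 0.15, adjusted p = 0.00877) and KIF1B (0.64 ± 0.15, adjusted p = 0.00909 and 0.67 ± 0.16, adjusted p = 0.0144). KIF11 rose as well, at 0.47 ± 0.14, adjusted p = 0.0354 early and 0.56 ± 0.15, adjusted p = 0.0248 late, with labelled libraries from 334 to 439 CPM and unlabelled ones from 237 to 299. Neither KIF11 call held without every library, and without the sparse library its adjusted p was 0.156 early and 0.0921 late. KIF1C (0.92 ± 0.18, adjusted p = 0.00239) and NUMA1 (0.59 ± 0.16, adjusted p = 0.0275) rose early and CENPF (0.49 ± 0.12, adjusted p = 0.0133) late.

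OMM minus NES labelling had 1 member higher (6.09% of genes early, 2.87% late) and 2 lower (0.806% and 0.189%) in each window, and they bore the same names. KIF1A was higher (1.91 ± 0.19, adjusted p = 1.01e-06 early and 2.42 ± 0.21, adjusted p = 6.08e-07 late). KIF3A (-1.83 ± 0.32, adjusted p = 0.000694 and -1.32 ± 0.34, adjusted p = 0.0365) and CKAP5 (-1.10 ± 0.20, adjusted p = 0.00104 and -0.86 ± 0.22, adjusted p = 0.0303) were lower. Without the sparse libraries, which left a single unlabelled OMM library, KIF1A stood at 2.80 and 3.25. KIF3A stood at -1.76 and -1.31, and CKAP5 was weaker, at -0.79 and -0.60. KIF11 stood at -0.52 ± 0.19 and -0.33 ± 0.21. Late against early labelled libraries had 0 members called at OMM (0.051% of genes higher, 0.28% lower) and 0 in NES (0.0153% and 0.0102%). There 7 and 2 members were under 0.05 before adjustment, and DESeq2 called 3 and 0. At OMM KIF3A (0.92 ± 0.22, adjusted p = 0.0806), KIF5B (0.54 ± 0.13, adjusted p = 0.0996) and KIF1B (0.48 ± 0.15) were nearest, and KIF11 was 0.27 ± 0.13. In NES DCTN1 (-0.46 ± 0.18), KIF5B (0.33 ± 0.13) and KIF3A (0.40 ± 0.22) were, and KIF11 was 0.08 ± 0.13.

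Pathway genes in nocodazole were counted against 17 tested kinesins, 31 dynein-related and 65 spindle genes. At OMM 17.2% of genes with at least 5 CPM rose and 8.32% fell early, and 14.2% and 6.69% late. In NES labelling the shares were 3.81% and 6.63% early and 3.19% and 5.11% late. At OMM 5, 4 and 4 rose and 1, 1 and 6 fell early, and 4, 4 and 4 rose and 1, 1 and 2 fell late. The mitochondrial motor adaptor TRAK2 (5.86 ± 0.88 and 5.94 ± 0.90) and KIF24 (4.50 ± 0.84 and 4.76 ± 0.87) rose with wide errors, 3 of the 4 unlabelled libraries behind them being the sparse ones, and PRC1 fell (-0.57 ± 0.10 and -0.64 ± 0.11). In NES labelling 0, 1 and 3 rose early and 0, 1 and 4 late, and none fell. CLASP1, which stabilises microtubule plus ends, led both (1.18 ± 0.22 and 1.20 ± 0.24), followed by SKA2 (0.90 ± 0.23 and 1.11 ± 0.25).

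Fold changes went with transcript length in several comparisons. The 2 shortest members, DYNLT1 (726 nt) and DYNLL1 (814 nt), were the ones that fell most often, and ASPM (10887 nt), KIF1B (10669 nt) and DYNC1H1 (20003 nt) are long. Over the 42 members Spearman's rho between length and log2 fold change was 0.88 in ERM, 0.69 in OMM, 0.60 in NES and 0.83 in both OMM and NES labelling with CCCP. Over all coding genes with at least 5 CPM it was 0.58, 0.30 and 0.34, and 0.58 and 0.70. In MITO labelling rho was 0.19 over members and 0.04 over coding genes, where KIF11 (4860 nt) is of middle length and KIFC1 (2706 nt) among the shorter members. Nuclear over cytosol fractions gave 0.56 and 0.28. Members' rho was 0.04 in NIK, -0.11 in NucPore and -0.19 in KDEL labelling, beside 0.22, 0.04 and -0.08 over coding genes. It was no higher than over coding genes in LMA labelling (0.42 and 0.44). The same held in NES labelling with cycloheximide (0.63 and 0.64) and puromycin (0.52 and 0.57). The members share libraries and the rhos are descriptions without a test, and the part of length in the calls was not tested.

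**Figure D5:**
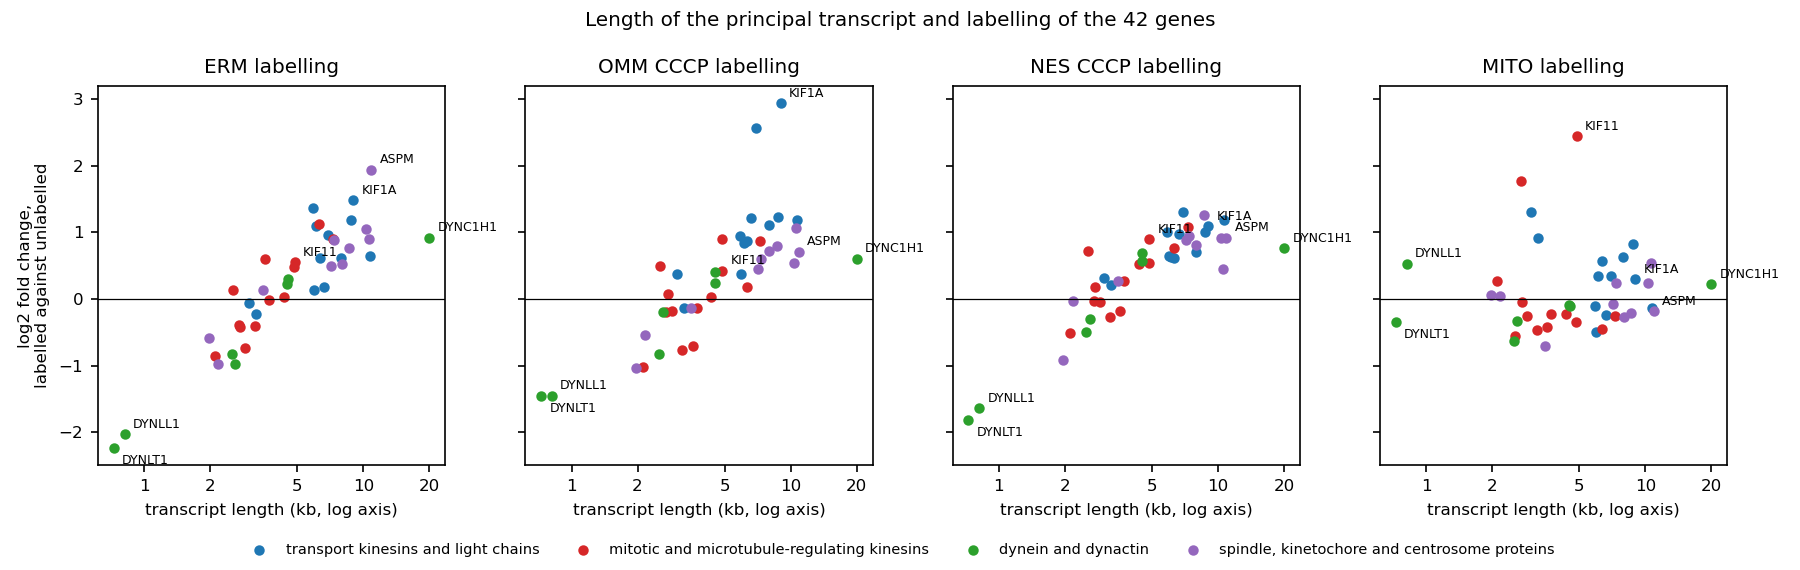
Length of the principal transcript (kb, log axis) against the log2 fold change of labelled over unlabelled libraries for the 42 genes, coloured by role, in 4 comparisons. In ERM labelling and in CCCP the points climb with length from DYNLT1 and DYNLL1, and in MITO labelling KIF11 stands above genes of its length.

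The authors' deposited table gives log2 fold changes of their own for the 9 constructs. The authors' deposited table has KIF11 at 2.23 in MITO, KIFC1 at 1.80 in MITO, KIF1A at 2.67 and KIF5C at 2.58 in OMM, ASPM at 1.74 and DYNLL1 at -1.77 in ERM. For some called members the authors' deposited table has values nearer 0, with the other sign for KIF5C: KIF5C at -0.26 in LMA, CEP192 at 0.12 in NLS and KIF1A at 0.30 in NES. The edgeR values of these are 1.83 ± 0.39, 1.30 ± 0.37 and 1.29 ± 0.31. The column names of the authors' deposited table carry 18C, and the constructs have 18 unlabelled libraries. The sources used here do not name the libraries behind that table, while the edgeR values compare a construct with its own 2. For KIF5C, CEP192 and KIF1A those 2 held the lowest of the 18 unlabelled values (6.73, 15.8 and 29.7 CPM, medians 27.5, 39.4 and 124). The cause of the differences was not tested. The header of the deposited table does not say whether its p-values are adjusted, and they are not used here.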

How the data were processed

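The data are APEX-seq and fractionation RNA-seq libraries of HEK293T cells, 97 in 49 groups, of which 1 labelled as a technical replicate, of a MITO sample, enters no comparison. Per the submitters' processing notes, reads were handled with Trimmomatic, STAR, HTSeq, SAMtools and bedtools and tested with DESeq2 on hg38 (GRCh38), and versions and settings are not given in the sources used here. The deposited tables hold raw read counts per gene, unnormalised. The authors also deposited a table of log2 fold changes, from which a few are quoted, and p-values, whose header does not say whether they are adjusted and which are not used.

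The 42 members were found by symbol through the Ensembl identifiers, 60675 in all, 57055 of them in GENCODE 29. Members and gene lists were chosen with earlier results of these data known. In each table, genes were filtered with filterByExpr, scaled by trimmed mean of M-values (TMM) and fitted with 1 mean per group in edgeR 4.0.16 (limma 3.58.1, R 4.3.3). All groups of a table shared the estimate of spread. Quasi-likelihood F tests were adjusted by Benjamini-Hochberg over all genes tested, and a gene passed at an adjusted p under 0.05. CPM are TMM-scaled unless called unscaled, and standard errors are the fold change divided by the root of F. Tables were normalised separately, and no test crosses them.

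Named were KIF11 in every comparison and up to 12 called members by smallest p. Where fewer than 3 were called, the 3 of smallest p with a mean of at least 5 CPM were named instead, and of the pathway lists up to 4 called genes. A count model was chosen because the deposited values are counts, and its script was tested on simulated counts with known changes. Alternatives were DESeq2 1.42.0, its size factors (RLE), no filter, a block for the replicate number, only the libraries of a comparison, and each library left out. The last kept the genes and dispersion trend of the whole table, and a group left with 1 library was assumed to vary like the others. Added after seeing the data was a fit of the nocodazole table without its sparse libraries. Labels do not say that replicate numbers pair samples. Total counts per library bound the precision of low genes. The p-values set a change against the spread between 2 cultures a group as estimated over all groups of a table.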

Additional observations from a re-analysis of the deposited data

Results flagged for a closer look

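Each value here is a difference between 2 labelling contrasts in log2 units that passed the test of that difference in edgeR, and none of these was weighed for a cause. Between constructs, NLS minus NES labelling was -1.26 for KIF1C and 1.11 for DYNC1LI2, and ERM minus NES labelling was 2.04 for ASPM. OMM minus NES labelling was 1.63 for KIF1A, 2.88 for KIF5C and -1.16 for DCTN1. MITO minus NES labelling was 2.18 for KIF11, 1.54 for KIFC1 and 1.75 for DYNLL1. MITO minus OMM labelling was 2.67 for KIF11, 1.88 for KIFC1, 1.64 for DYNLL1 and -2.62 for KIF1A. The 2 labelled MITO libraries of DYNLL1 stood at 238 and 596 CPM.

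In cycloheximide, OMM minus NES labelling was 2.94 for KIF1A, 1.45 for DYNLT1 and 1.10 for DYNLL1. The same difference was -2.62 for KIF15, -2.54 for KIF21A, -1.52 for KIF4A, -1.47 for both KIF14 and CKAP5, -1.43 for KIF20B and -1.34 for KIF2A. It was -1.29 for KIF11, -1.25 for DCTN1, -1.03 for DYNC1H1, -1.02 for KIF1B, -1.01 for KIF5B and -0.81 for KIF1C. In puromycin it was 2.60 for KIF1A. OMM labelling in cycloheximide minus puromycin was -2.01 for KIF15, -1.29 for both KIF14 and DCTN1, and -0.90 for KIF1C.

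In nocodazole, OMM minus NES labelling was 1.91 early and 2.42 late for KIF1A, -1.83 and -1.32 for KIF3A, and -1.10 and -0.86 for CKAP5.

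A library labelled a technical replicate of the second labelled MITO sample, used in no comparison, had 410 CPM of KIF11, 153 of KIFC1 and 88.0 of KLC2 as unscaled shares of its counts. Each lay above both unlabelled MITO libraries, as did the second labelled MITO library, and it was not counted as a replicate of its own.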

How the results depend on the processing

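No value of a called member changed direction under the alternatives run: of 2545 recomputed values of called members, 1990 kept their side of the threshold and 555 did not, 408 of the latter with 1 library left out. Of 419 recomputed counts of called members, 303 stayed within 1.5 times the reported count. A block for the replicate number left all 35 counts within 1.5 times (4 for NLS, 13 for ERM, 3 for OMM and 3 for MITO, as reported). It kept the side of the threshold of 222 of 229 values of called members, and correlations of same-numbered libraries ran from -0.161 to 0.148 over 17 pairs.

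With only the libraries of the comparison in the fit, 12 members were called in NLS, 0 in NIK, 15 in LMA and 0 in NES labelling, and 2 in OMM labelling with cycloheximide and 14 with puromycin. The same choice gave 0 for NLS minus NES, 1 each for OMM minus NES and MITO minus NES, 2 for OMM minus NES in cycloheximide and 2 for cycloheximide minus puromycin at OMM. In nocodazole it gave 6 early and 2 late at OMM, 1 for late OMM minus NES, and 6 at OMM and 5 in NES for late against early. It was not run apart for the fractions and for poly(A) against total RNA, whose tables hold no other libraries. DESeq2 called 8 members in NIK, 15 in LMA, 1 in NucPore, 12 in NES, 22 in ERM and 8 in OMM labelling and 2 in MITO total RNA. It called 3 for ERM minus NES, 5 for MITO minus NES, 1 for OMM minus NES in CCCP, 6 early and 5 late for OMM minus NES in nocodazole, and 3 for OMM late against early. Without the filter 5 were called in OMM labelling, 3 in MITO total RNA, 12 in the fractions, 16 in NES labelling with puromycin and 1 for OMM minus NES in CCCP. It also gave 5 early and 5 late for OMM minus NES in nocodazole and 1 for OMM late against early. RLE scaling gave 1 for NLS minus NES. Without the sparse libraries OMM minus NES in nocodazole had 6 early and 5 late. The cause of these shifts was not tested, beyond the smaller number of libraries where only those of a comparison were used.

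With 1 library left out, counts ran over 1 to 2 in NLS, 0 to 5 in NIK, 5 to 7 in LMA, 0 to 12 in NES, 8 to 13 in ERM, 2 to 7 in OMM and 2 to 4 in MITO labelling, and 0 to 3 in MITO total RNA. They ran over 0 to 4 for NLS, 1 to 6 for ERM, 1 to 5 for OMM and 1 to 5 for MITO, each minus NES, 3 to 6 for MITO minus OMM, and 14 to 22 in the fractions. At OMM they ran over 4 to 14 in cycloheximide, 1 to 4 in puromycin, 7 to 11 in CCCP, 6 to 15 early and 8 to 17 late in nocodazole. In NES they ran over 16 to 23, 5 to 9, 5 to 12, 8 to 13 and 6 to 14 in the same order. OMM minus NES ran over 8 to 20, 0 to 1, 0 to 1, 3 to 9 and 1 to 9, cycloheximide minus puromycin over 1 to 9, and OMM late against early over 0 to 1. With 2 libraries a group, a member that missed the threshold was not shown to be unchanged.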
